A study of Caenorhabditis elegans with 2 samples.

Results

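K12H4.5, atx-2, ecps-1 and idhg-1 are 4 protein-coding genes at 3 of the 4 highest-scoring nuclear promoter peaks of the tagged protein C38D4.7. They were chosen by score, as listed genes at peaks of the authors' optimal list that fall in a protein-coding promoter of the nuclear genome and away from small RNA genes. The remaining peak of those 4, at ears-2 and uncp-18, stands above that of idhg-1, and mlcd-1 shares the idhg-1 summit, but these genes are not among the members. They are 4 of 19983 annotated protein-coding genes, and their peaks are 3 of 219 such promoter peaks among 649 optimal lines. Peaks are counted by summit, so a region with more than 1 summit, as at W01D2.3 and ftt-2, counts more than once. A promoter here is the stretch that begins 1000 bp before a gene start and ends 200 bp after it, and "away" means that no tRNA, snoRNA, snRNA or rRNA gene lies within 200 bp of the summit, which is the base where a peak is tallest. All 4 members had an optimal summit in their promoter, as the choice fixes, against 1.93% of all protein-coding genes (385 of 19983).

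Chromatin immunoprecipitation with sequencing (ChIP-seq) was done on C. elegans strain OP708, which carries the unc-119(tm4063) allele and the insertion wgIs708, made of C38D4.7 fused to TY1, EGFP and 3xFLAG together with a functional unc-119(+). The samples are 2 biological replicates of 1 group, both of whole late embryos of mixed sex aged 4 hours, synchronised by egg bleaching, and the antibody recognised GFP. Chromatin was sheared by sonication with a Bioruptor. Both replicates carry the unc-119 allele and the rescuing transgene, so the signal reports an added, C-terminally tagged copy of C38D4.7 in all embryonic cells that make it. No list from an untagged strain was used here, and the specificity of the peaks for the tagged protein was not tested. Nothing in the lists measures expression, so neither the embryo stage nor the activity of any gene was checked.

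A ChIP-seq peak marks DNA that came down with a protein, directly or through partners, and says nothing of whether a nearby gene is switched up or down. In C. elegans, promoters are compact, and genes that point away from each other often share the DNA between their starts. Ataxin-2 proteins bind RNA together with poly(A)-binding protein, and worm atx-2 is known for roles in translational control of the germline and in cell division in the early embryo. Ecm29, the family of ecps-1, is known from yeast as an adaptor and scaffold of the proteasome, the protein-degrading complex. The product of idhg-1 is a subunit of the NAD-dependent isocitrate dehydrogenase, which turns isocitrate into 2-oxoglutarate in the mitochondrial tricarboxylic acid (TCA) cycle. K12H4.5 is annotated as an uncharacterized protein.

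The DNA at the 3 summits is shown because 2 of them share a sequence that the third lacks. Each stretch runs from 100 bases before to 60 bases after the optimal summit on the plus strand of WBcel235, the assembly also called ce11, and was read from the RefSeq sequence. None of the 3 overlaps a coding exon annotated in RefSeq or an untranslated region annotated in Ensembl. Capitals mark, on either strand, a two-part element (GNGCGGC, then 4 bases, then TTGC), any other GTGCGGC, the motif CCGCCC and the repeat GAGAGA.
K12H4.5, III:8043856-8044016: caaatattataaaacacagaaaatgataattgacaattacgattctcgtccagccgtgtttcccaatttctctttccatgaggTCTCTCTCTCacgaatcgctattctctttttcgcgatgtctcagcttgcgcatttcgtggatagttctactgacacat
atx-2 and ecps-1, III:10461207-10461367: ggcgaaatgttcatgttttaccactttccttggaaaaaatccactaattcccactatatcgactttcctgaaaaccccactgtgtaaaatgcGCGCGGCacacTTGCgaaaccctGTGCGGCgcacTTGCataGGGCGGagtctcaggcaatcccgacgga
idhg-1, III:4568632-4568792: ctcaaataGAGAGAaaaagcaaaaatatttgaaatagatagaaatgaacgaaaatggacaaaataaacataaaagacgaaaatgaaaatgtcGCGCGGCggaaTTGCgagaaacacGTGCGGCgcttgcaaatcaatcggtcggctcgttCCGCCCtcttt

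At the summit shared by atx-2 and ecps-1 the two-part element occurred 2 times on the plus strand, from base -8 to base 6 and from base 15 to base 29, counted from the summit as 0. At idhg-1 it occurred 1 time, again from base -8 to base 6. Both copies that span the summit are preceded by C, so that CGCGCGGC lies at the same 8 positions in both. At idhg-1 a second GTGCGGC lay at bases 16 to 22, near the place of the second copy at atx-2, but TTGC followed it after 2 bases, so it did not meet the definition. The K12H4.5 stretch held neither GNGCGGC nor CCGCAC nor CCGCCC within 100 bp of the summit. It did hold TTGCG, which contains the TTGC of the element, at bases 28 to 32. It had overlapping GAGAGA matches on the minus strand, printed as a run of TC repeats, that began 17, 15 and 13 bases before the summit.

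The K12H4.5 peak was the highest-scoring of the 219 promoter peaks. Its gene (III, 8044487 to 8044780, plus strand) has 1 coding exon of 294 bp for a protein of 97 residues. The annotated gene is no longer than that exon, so its start is the start of the coding sequence and no untranslated leader is annotated. The peak spans 8043739 to 8044171 and ranked 12 of 649 lines in the optimal list with a score of 1652. The score is the authors' own value for each peak, its scaling is not stated, and it is used here only to order peaks within a list. Replicate 1 placed the peak at rank 11 with a score of 1152, and replicate 2 at rank 25 with a score of 501.0. The summits of the replicates lay 1 bp apart, at 8043957 in replicate 1 and 8043956 in replicate 2, and the optimal summit was 8043956. No other optimal, pooled or replicate 1 candidate lay within 2000 bp of the gene start, and replicate 2 had 1 more, 540 bp downstream of the start at rank 25133 of 26661. K12H4.5 thus had the fewest further candidates of the 4 members over these lists.

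The K12H4.5 summit lay 531 bp upstream of its gene in a gap of 1611 bp that separates it from the divergent gene K12H4.6, also uncharacterized, whose start was 1081 bp away. It was therefore outside the promoter of K12H4.6 and counted for K12H4.5 alone, and a promoter that began 500 bp before the start would not hold it. Downstream of K12H4.5 3 more genes follow on the same strand at short gaps. They are spcs-3, a signal peptidase complex subunit, after 236 bp, K12H4.3, a homologue of the ribosome biogenesis protein BRX1, after 102 bp, and mals-1, named for mitochondrial assembly of the large ribosomal subunit, after 99 bp. The next gene on that strand, pros-1, begins 18827 bp further on. The start of spcs-3 lay 1061 bp from the summit. K12H4.3, mals-1 and pros-1 start beyond 2000 bp and were named after the map was seen. The lists do not tell which gene of such a run the bound DNA serves.

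The peak shared by atx-2 and ecps-1 was second among the promoter peaks. Both genes are on chromosome III, atx-2 at 10461389 to 10468051 on the plus strand and ecps-1 at 10452753 to 10460551 on the minus strand, and their starts are separated by 837 bp. The peak spans 10461139 to 10461466, with its summit at 10461307. That is 82 bp upstream of atx-2 and 756 bp upstream of ecps-1, so 1 peak stands for 2 members and cannot be assigned to either gene from position alone. It ranked 29 in the optimal list with a score of 942.2. Replicate 1 gave rank 33 with a score of 621.0, and replicate 2 gave rank 38 with a score of 324.4. The summit of replicate 1 was at the same base as the optimal one, and that of replicate 2 was 15 bp nearer to atx-2.

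The distance to atx-2 depends on which of its 4 annotated mRNAs is taken. The summit lay 82 bp upstream of transcript D2045.1d, 321 bp upstream of D2045.1a, 406 bp upstream of D2045.1c and 3149 bp upstream of D2045.1b, so it stood before the start of each. The longest atx-2 coding sequence is 3213 bp in 12 exons for 1070 residues, and the single ecps-1 mRNA codes for 1810 residues in 17 coding exons. Further candidates within 2000 bp of either start ranked far lower. For atx-2 there were 4 besides the main peak in the pooled list, the best at rank 14239 inside the gene, 3 in replicate 1, the best at rank 3577, and 2 in replicate 2, the best at rank 6113. One pooled candidate, at rank 16094, had its summit 204 bp from the main summit and its region overlapped the main peak.

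The idhg-1 peak stood at place 4 among the promoter peaks. The gene lies on chromosome III at 4569013 to 4571865 on the plus strand, with 1191 bp of coding sequence in 8 exons for 396 residues. The peak spans 4568596 to 4568869, with its summit at 4568732, 281 bp upstream of the RefSeq start. Its rank was 36 in the optimal list with a score of 890.8. Replicate 1 gave rank 37 with a score of 609.9 and the same summit base, and replicate 2 gave rank 53 with a score of 279.9 and a summit 11 bp nearer to the gene. An Ensembl 115 transcript, F35G12.2.2, starts at 4568797, only 65 bp from the summit. The nearest start on the other side was that of mlcd-1, a mitochondrial malonyl-CoA decarboxylase, 602 bp away on the minus strand. Its promoter therefore holds the same summit, although mlcd-1 is not among the members, and the gap between both genes is 882 bp.

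A weaker candidate stood beside the idhg-1 peak in each longer list. It lay 200 bp from the optimal summit toward the gene in the pooled list, at rank 3989 with a score of 105.5, and at rank 13990 in replicate 1. In replicate 2 it lay 215 bp away at rank 6872. Its region overlapped the main peak in each of these lists. Neither this candidate nor the one beside atx-2 was in the optimal list.

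**Figure D1:**
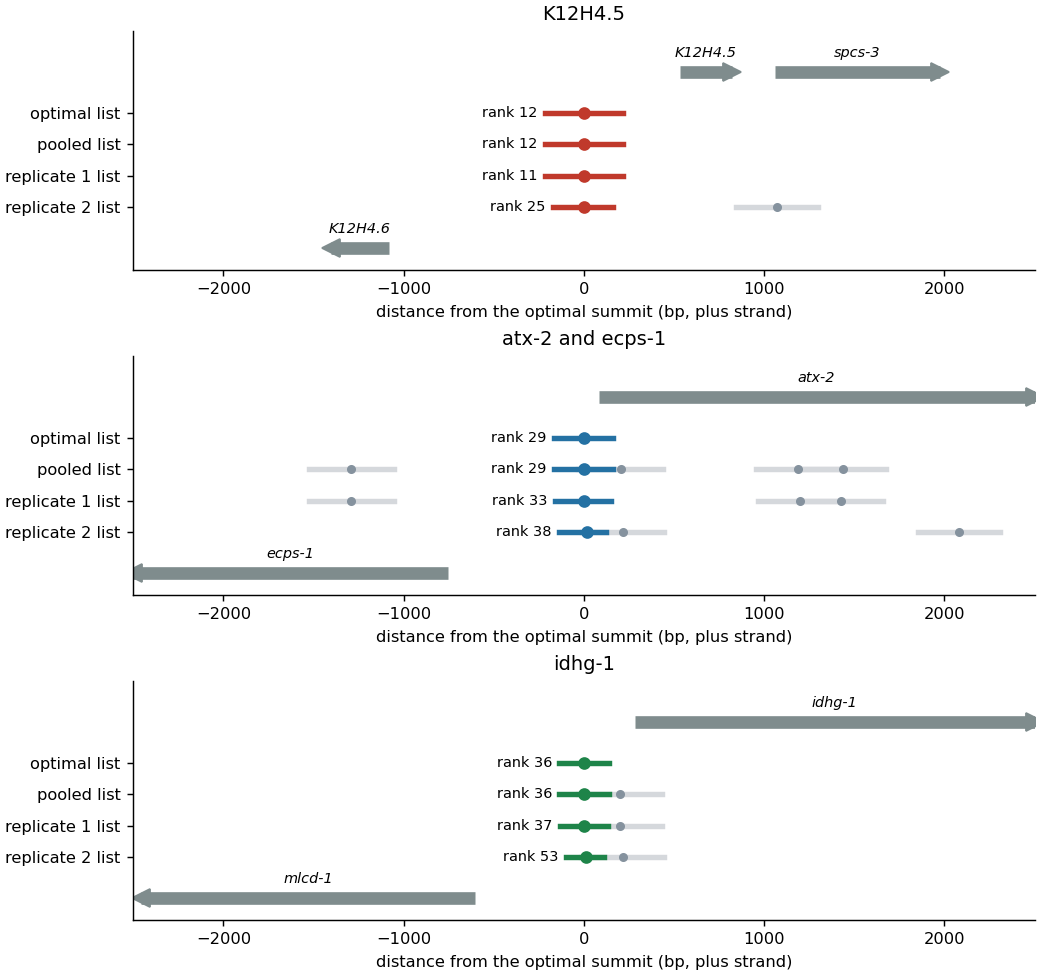
Map of the 3 loci, with distance from the optimal summit in bp on the x axis and the 4 deposited lists on the y axis. Arrows are genes in the direction of transcription (plus strand above, minus strand below, ends beyond the axis not drawn), coloured dots and bars are the summit and region of the best candidate with its rank, and grey ones are further candidates within 2000 bp of a member's start; each main summit lies between divergent genes.

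The order of the 3 peaks was the same in all lists. K12H4.5 ranked 12, 11 and 25 in the optimal, replicate 1 and replicate 2 lists, the atx-2 and ecps-1 peak 29, 33 and 38, and idhg-1 36, 37 and 53. Each peak ranked lower in replicate 2 than in replicate 1. The authors' −log10 q-value could not separate them, because all 3 carried the highest value of each list, 3.06 in the optimal list (as had 581 of its 649 lines), 3.09 in replicate 1 and 2.80 in replicate 2. How many reads lay behind each peak is unknown, as the lists hold no read counts.

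The lower edge of the selection fell between ranks 36 and 37 of the optimal list. The promoter peak between ears-2, which encodes mitochondrial glutamyl-tRNA synthetase, and uncp-18, a syntaxin-binding protein, scored 912.7 at rank 32. It stood above idhg-1 in the order and yet is not among the listed members. Just below idhg-1, at 890.8, came the peak at T13C5.6 with 888.4, followed by those at W01D2.3 with 827.6, ftt-2, a 14-3-3 protein, with 819.3 and K05C4.2 with 734.5. K12H4.5 scored 1652 and the next peak 942.2. As the scaling of the score is not stated, the sizes of these differences cannot be compared. By distance in log10 rank over the optimal, replicate 1 and replicate 2 lists, the 3 peaks most like the members' mean were those of ears-2 and uncp-18 (0.229), T13C5.6 (0.338) and W01D2.3 (0.438).

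**Figure D2:**
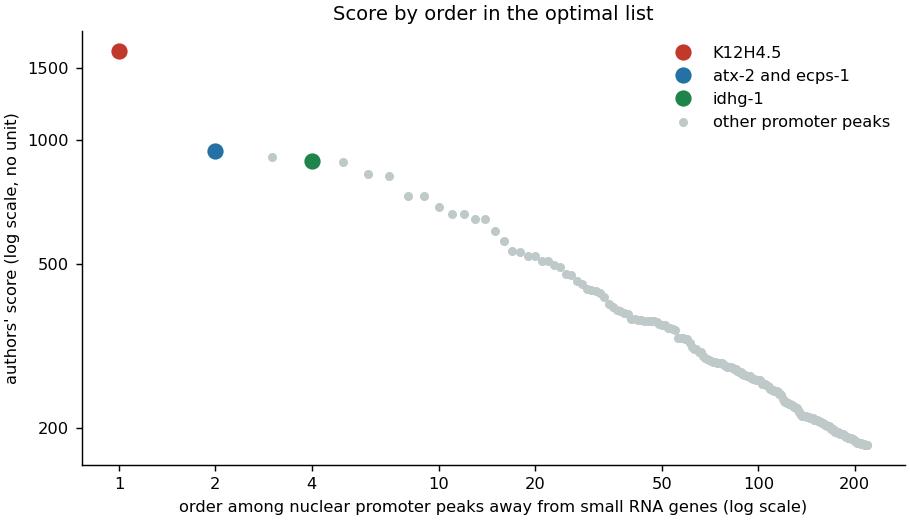
The authors' score of each of the 219 nuclear promoter peaks (y axis, log scale, no unit) against its order by that score (x axis, log scale). Each dot is 1 peak, counted by its summit. K12H4.5 stands at 1652, the atx-2 and ecps-1 peak at 942.2 and idhg-1 at 890.8, with 1 peak of no member at 912.7 between the last 2.

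Position is not part of the score that chose the members, beyond the promoter window itself. All 3 member peaks lay between divergent genes, as did 131 of the 216 other promoter peaks (60.7%), while 73 of the others lay between genes on the same strand and 12 inside a gene. The summit fell in more than 1 promoter at 2 of the 3 member peaks and at 86 of the 216 others (39.8%). Of the 3 peaks most like the members in rank, those of ears-2 and uncp-18 and of W01D2.3 also lay between divergent genes. That of T13C5.6 lay between genes on the same strand. The ears-2 and uncp-18 summit also fell in more than 1 promoter, and those of T13C5.6 and W01D2.3 did not. Distances to the nearest start were 531 bp for K12H4.5, 82 bp for atx-2 and 281 bp for idhg-1, all upstream. The others had a median of 210 bp upstream, with quartiles of 398.5 and 137.8 bp upstream. K12H4.5 thus lay farther upstream than the outer quartile of the others, atx-2 lay nearer than the inner one, and idhg-1 lay between the quartiles. These places hold only for the gene starts used. From other annotated starts the summit lay 321, 406 and 3149 bp upstream for atx-2 and 65 bp upstream for idhg-1. The K12H4.5 distance is to the start of its coding sequence, as no untranslated leader is annotated. Where its transcription begins was not tested.

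Replicate summits at the member peaks lay 1 bp apart at K12H4.5, 15 bp at atx-2 and ecps-1, and 11 bp at idhg-1. At 215 other promoter peaks with a candidate in both lists the median was 22 bp, with quartiles of 9 and 45.5 bp. For each peak the best candidate of each replicate that overlaps the optimal region was taken. Optimal summits close to each other can therefore carry the same value, as at W01D2.3 and ftt-2. K12H4.5 lay below the lower quartile, and the atx-2 and idhg-1 peaks lay between the quartiles. At the 3 peaks most like the members in rank the distance was 26 bp (ears-2 and uncp-18), 0 bp (T13C5.6) and 23 bp (W01D2.3). Close replicate summits were therefore not particular to the members. The member regions were 433 bp wide at K12H4.5, 328 bp at atx-2 and ecps-1 and 274 bp at idhg-1, all below 470 bp, the commonest width in the optimal list. Of the 216 others 29 were narrower than 470 bp (13.4%), but of the 17 others among the 20 highest-scoring promoter peaks 14 were (82.4%). Narrow regions therefore went with high score and were not particular to the members. The nearest tRNA, snoRNA, snRNA or rRNA gene was 25449 bp from the K12H4.5 summit, 28831 bp from the atx-2 summit and 97774 bp from the idhg-1 summit. MicroRNA and other non-coding RNA genes are not among these classes. The nearest non-coding gene of any class was 15223 bp from the K12H4.5 summit and 23036 bp from the atx-2 summit. At idhg-1 it was the microRNA gene mir-4813, 2908 bp away.

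**Figure D3:**
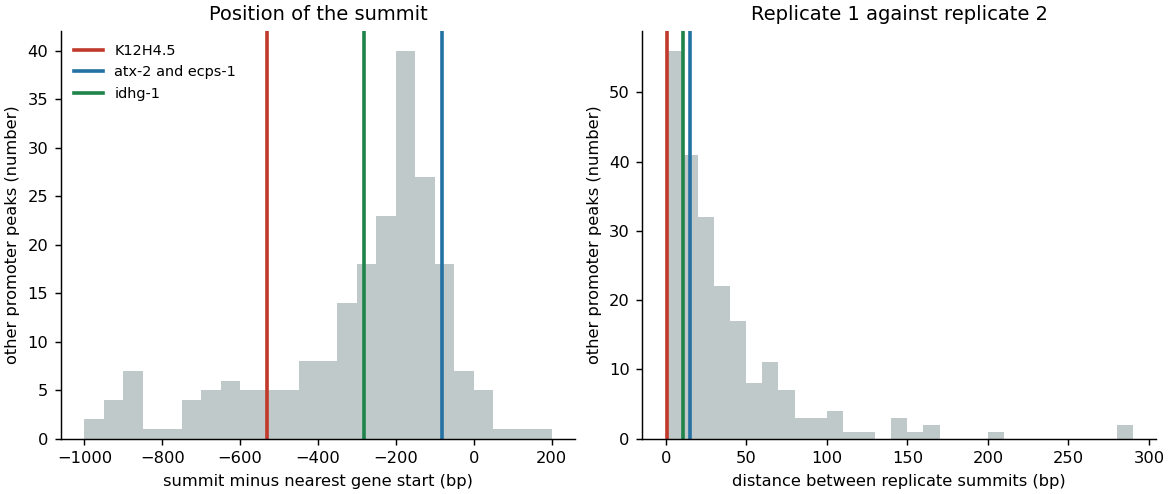
Left, distance from the summit to the nearest protein-coding start in bp (negative is upstream), and right, distance between the replicate 1 and replicate 2 summits in bp. Coloured lines are the 3 member peaks and grey bars count other promoter peaks; the members lie 531, 281 and 82 bp upstream, and their replicate summits 1, 11 and 15 bp apart.

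The two-part element was described after the sequences at atx-2 and idhg-1 were seen, so its presence there is no finding, but its share elsewhere can be counted. In windows of 201 bp centred on the summit, on both strands, it was in 29 of the 216 other promoter peaks (13.4%). It was in 14 of 6805 lower-ranked promoter candidates (0.206%), which are pooled summits outside the optimal list and over 300 bp from any optimal summit. Among windows of the same length centred 210 bp upstream of each gene start, 54 of 19960 held it (0.271%). Over the whole assembly it occurred 601 times, and 36 of these lay within 100 bp of an optimal summit (5.99%). Most of its occurrences therefore had no optimal peak. At the other promoter peaks the 30 copies lay close to the summit, at a median of 18.5 bp, and 28 of them lay within 50 bp.

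The pair of copies at atx-2 and ecps-1 is no finding either, because the definition was drawn up with that sequence in view. Elsewhere a pair of copies was rare. Of the other promoter peaks 1 of 216 had at least 2, at the promoters of spe-48 and spgt-1 (rank 74), names taken after the count was seen. The lower-ranked candidates had 0 of 6805, and the promoter windows 1 of 19960. The ears-2 and uncp-18 peak, between atx-2 and idhg-1 in score, had 1 copy, as had K05C4.2, and the peaks at T13C5.6, W01D2.3 and ftt-2 had none. K12H4.5, at the top of the order, also had none, so the score did not follow the element peak by peak. TTGCG alone was at all 3 member peaks. It was in 57.9% of other promoter peaks, 27.5% of lower-ranked candidates and 22.05% of promoter windows. Among the other promoter peaks the element was in 5 of the 17 within the first 20 places (29.4%), in 15 of the 80 at places 21 to 100 (18.8%) and in 9 of the 119 at places 101 to 219 (7.56%).

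**Figure D4:**
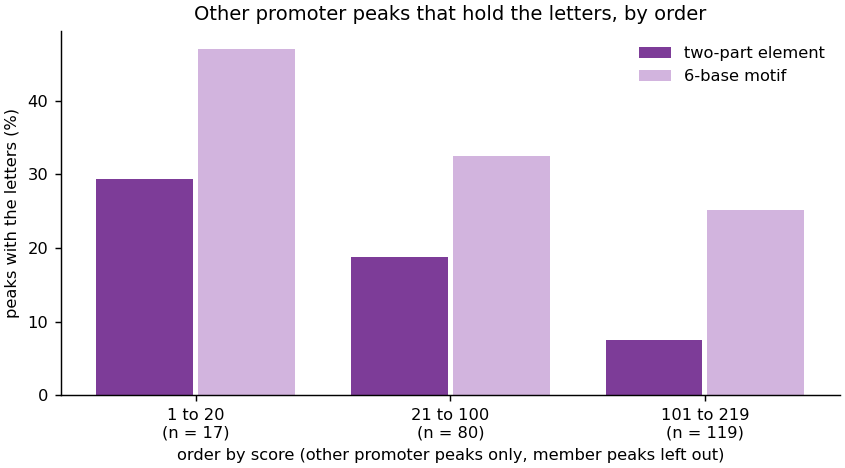
Share of other promoter peaks (y axis, %) whose 201-bp summit window holds the two-part element or the 6-base motif CCGCAC, in 3 ranges of order by score (x axis), with the member peaks left out. The two-part element is in 29.4, 18.8 and 7.56% and CCGCAC in 47.1, 32.5 and 25.2%.

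The shorter motifs had been listed with earlier results of these data known. GTGCGGC contains the reverse complement of CCGCAC, so both count in part the same bases. CCGCAC was at bases 15 to 20 of the atx-2 and ecps-1 peak and at bases 16 to 21 of idhg-1, on the minus strand, and absent from K12H4.5. It was in 64 of 216 other promoter peaks (29.6%), 5.31% of lower-ranked candidates and 3.13% of promoter windows. Its 78 copies in the other peaks lay at a median of 27.5 bp from the summit, and 60 of them lay within 50 bp (76.9%). CCGCCC was at bases 33 to 38 at atx-2 and at bases 50 to 55 at idhg-1, and in 23.6% of other promoter peaks, 7.60% of lower-ranked candidates and 939 of 19960 promoter windows. CGCACA, which overlaps CCGCAC by 5 bases, was present at atx-2 alone among the member peaks, and in 32.4, 7.22 and 5.36% of the 3 sets.

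**Figure D5:**
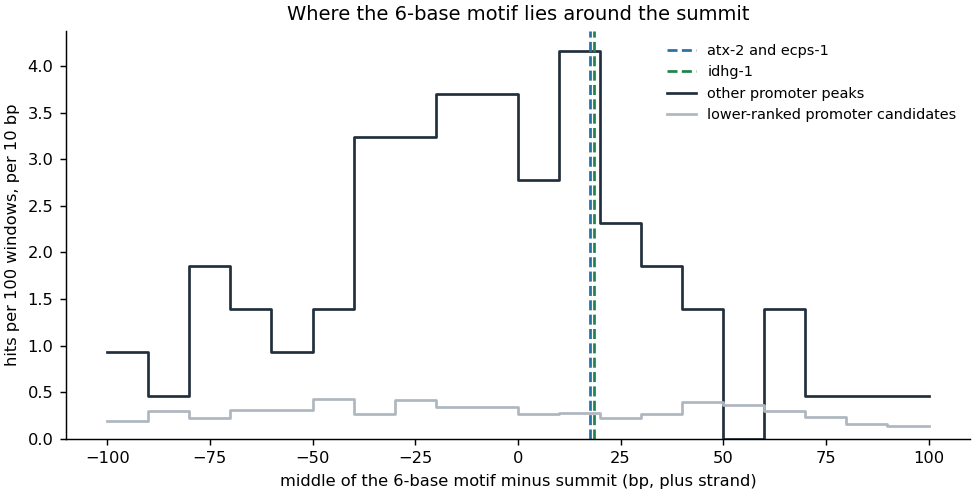
Position of the 6-base motif CCGCAC around the summit (x axis, bp on the plus strand) as copies per 100 windows in bins of 10 bp (y axis). Dashed lines mark atx-2 with ecps-1 and idhg-1, the dark line the 216 other promoter peaks and the grey line the 6805 lower-ranked promoter candidates; 60 of 78 copies in the other peaks lie within 50 bp of the summit.

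Of the other listed motifs, GAGAGA was at K12H4.5 and idhg-1, and in 28.2% of other promoter peaks, 18.2% of lower-ranked candidates and 13.8% of promoter windows. TATAAA, the core of the TATA box, was at K12H4.5 alone, 93 to 88 bases before the summit, and in 14.4, 18.2 and 24.8% of these sets. A run of TTTTTT was at atx-2 and idhg-1 and in most windows of every set (58.8, 59.0 and 68.9%). CACGTG was at idhg-1, where it overlaps GTGCGGC, and in 3.24, 3.97 and 3.27%. CGAACC was at none of the 3 peaks, and the same held for GTTCGA, for the motif TGACGT and for TTTCGCGC, which says only that these letters are not in these windows.

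Base composition differed between the sets. The GC content of the 201 bp was 40.8% at K12H4.5, 52.2% at atx-2 and ecps-1 and 36.8% at idhg-1. The median was 43.0% in the other promoter peaks, 39.3% in lower-ranked candidates and 33.8% in promoter windows. The number of CG pairs was 14, 17 and 14 at the member peaks, against medians of 12, 8 and 6 in those sets. The part of base composition in the motif shares was not tested. Laid on each other with the summits aligned, the 61 bp around atx-2 and around idhg-1 had 31 matching bases (50.8%), the most of 42 placements tried. Their longest common run, GTGCGGCGC, begins at base 15 at atx-2 and at base 16 at idhg-1, so it is out of line in that placement. The best placements of K12H4.5 gave 22 matches with atx-2 and 25 with idhg-1. A blastn search of 301 bp around each summit found no other match in the genome, so none of the 3 peaks lies in a repeated sequence by that measure.

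The members' annotations name different functions, and genes related to each were counted from a list, with no test between lists. In the TCA cycle list 4 of 32 genes had an optimal summit in the promoter (12.5%, against 1.93% of all genes), and 3 of 31 without idhg-1. Those 3 were dlst-1, a subunit of the 2-oxoglutarate dehydrogenase complex, at rank 496, suca-1, of succinyl-CoA ligase, at rank 555, and mev-1, of succinate dehydrogenase, at rank 562. All 3 ranked far below idhg-1, and the mev-1 summit also lies in the promoter of jmjd-4. The partner subunits of idhg-1 were not in the optimal list, as the best promoter candidates of idha-1 and idhb-1 ranked 13158 and 19374 in the pooled list, and idhg-2, annotated like idhg-1 as an NAD-dependent subunit, had none. The NADP-dependent enzymes idh-1 and idh-2 had pooled ranks of 18852 and 15732.

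In the proteasome list 2 of 40 matched genes had an optimal summit in the promoter (5.00%), ecps-1 and rpn-7, a subunit of the regulatory particle, at rank 251 and 362 bp upstream of its start. Without ecps-1 that is 1 of 39 (2.56%), near the share of all genes. The rpn-7 summit lies nearer to the start of F49C12.9, whose promoter also holds it. The related scaffold gene ecps-2 had no pooled candidate in its promoter. In a list of RNA-binding and centrosome genes around ataxin-2, 3 of 37 matched genes had one (8.11%), and 2 of 36 without atx-2. These were sas-5, a centriole assembly gene, at rank 125, and larp-1, a La-related RNA-binding protein, at rank 455. The sas-5 summit also lies in the promoter of piit-1, and the larp-1 summit lies nearer to the start of wip-1. Shared summits cannot be assigned to either gene from position alone. The pooled list had szy-20, which limits centrosome size, at rank 666, just outside the optimal 649, and the poly(A)-binding protein genes pab-1 and pab-2 at ranks 2219 and 3781. Each of these lists was drawn up around a member, so the count with that member included is partly fixed by the choice.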

How the data were processed

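The deposited lists hold regions on assembly ce11, called by the authors for each replicate, for pooled alignments and as an optimal set, each against a control alignment per the deposited read-me texts. Caller, aligner and threshold: not given in the sources used here. The authors' score and −log10 q-value per line were used as deposited, and lines were ranked by score. Summits come from the deposited offset within each region (another column of the authors' lists). The lists hold no read counts, so the depth per sample is unknown and no interval was computed. The pooled and replicate 1 lists hold 30000 lines each and the replicate 2 list 26661.

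Genes and sequence were taken from RefSeq WBcel235, with transcript starts also from Ensembl 115. Python 3.11.15, pandas 2.3.3, numpy 2.4.6 and blastn 2.17.0 (E-value limit 1e-05) were used. Summit assignment and motif search were tested on simulated data. Members, gene lists, motifs and named genes were chosen with earlier results of these data known. Named genes were the members, genes starting within 2000 bp of a member's summit, the 4 peaks just below the lowest member, the 3 peaks most like the members in rank, and list genes with an optimal summit. The partners, cluster genes, genes that share a summit with a list gene and the two-part element were added after values were seen. With 1 group of 2 samples and members chosen by score, no test was made. Alternatives were other promoter, small RNA distance and window sizes, a stricter list and each replicate alone.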

Additional observations from a re-analysis of the deposited data

How the results depend on the processing

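Of 79 alternative settings tried on 21 results, 17 moved the value, by more than 1.5 times for a count of members, or by more than 1 SD over both replicates for a place or a distance, a bound under which even 1 bp counts at K12H4.5. The other 62 did not pass that bound, though counts of 2 to 4 members can change by 1 within it. When a promoter began 500 bp before the start and ended 100 bp after it, the atx-2 and ecps-1 peak stood at place 1 and idhg-1 at place 3 among promoter peaks, 2 members had an optimal summit in their promoter in place of 4. The summit of 1 member lay in another gene's promoter in place of 3, which was that of ecps-1 in the promoter of atx-2 and no longer in its own, so no member's summit was shared; K12H4.5 then had no place, since its summit lay in no promoter. From the nearest annotated mRNA start idhg-1 was at -65 bp. With only 50 bp kept on each side of a summit, TATAAA was at 0 members, TTTTTT at 0 and GAGAGA at 1, and with 150 bp GTTCGA was at 2 and GAGAGA at 4. Motif counts here are over members and not peaks, so the window shared by atx-2 and ecps-1 counts for both. With 1 replicate left out, the place of idhg-1 was 5 to 6 in place of 4, and the distance to the start was -531 to -530 bp for K12H4.5, -82 to -67 bp for atx-2, -771 to -756 bp for ecps-1 and -281 to -270 bp for idhg-1. The cause was not tested. The element's count of members moved under none of the 4 alternatives chosen after seeing the data, which were other windows and replicate summits. No paired analysis was possible because there is 1 group. The unknown read depth limits what the ranks can show.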
